A study of Rattus norvegicus with 10 samples.

Results

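The genes described here are 3 components of bone morphogenetic protein (BMP) signaling, the ligand gene *Bmp2* (ENSRNOG00000021276), the receptor gene *Acvrl1* (ENSRNOG00000028713) and the antagonist gene *Grem1* (ENSRNOG00000026053), out of 32622 genes in the count table. Their Ensembl identifiers were matched to symbols through the list of genes that the study called differentially expressed against Control. *Bmp2* stood on that list for HS7 and HS14, *Acvrl1* for HS1 and HS14, and *Grem1* for HS1, HS7 and HS14. Since the genes were chosen by their measured differences from Control in these libraries, those differences are given as a description with no test. For the same reason, a difference between suspension groups has an adjusted p only where neither group had put the gene on that list. On the scale used for the choice, a log2 fold change beyond 1.5, the smallest difference inside the limit was that of *Acvrl1* in HS14 (-1.55), and the largest one outside it was that of *Acvrl1* in HS3 (1.11).

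RNA came from cultured skeletal muscle progenitor cells of the soleus, a postural calf muscle, of male Wistar rats aged 3 months. Control rats stayed in the vivarium, and the other rats underwent hindlimb suspension (HS), in which the hindlimbs bear no weight, for 1 day (HS1), 3 days (HS3), 7 days (HS7) or 14 days (HS14). No group carried a transgene, a mutation or a drug treatment, and the cells of all 5 groups were grown in the same medium and separated by pre-plating, a step meant to leave fibro-adipogenic progenitors behind on the dish. There were 2 libraries per group, and the study does not say whether they came from different animals or cultures, so an SD or a p-value measures only the spread between these libraries.

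Libraries held 20200972 to 28175200 counts, so that 3 counts, taken as the detection floor, equalled 0.106 to 0.149 CPM (counts scaled to a library of 1000000 counts). The identity of the cells could be checked only in part, because 4 of 11 myogenic markers had an identifier. Identifiers were at hand only for genes that the study called against Control, so differences of these markers between groups only describe them. All 4 were present in every library. They summed to 624 to 664 CPM in Control, 321 to 365 CPM at HS1, 1542 to 1584 CPM at HS3, 2009 to 3216 CPM at HS7 and 383 to 438 CPM at HS14. Their sum was thus below Control at HS1 and above it at HS3, as were the 3 genes described here, but unlike these it was above Control at HS7. The part of this in the results was not tested. The median log2 fold change over all genes tested lay between -0.01 and 0.01 in every comparison.

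BMPs are secreted ligands that bind pairs of type I and type II receptor kinases, which then activate Smad transcription factors. In muscle progenitors, BMP signaling is known to favour expansion of the dividing pool over differentiation. *Bmp2* encodes one of the classical ligands. *Acvrl1* encodes ALK1, a type I receptor best known from blood vessels, where it works with the co-receptor endoglin. *Grem1* encodes gremlin 1, a secreted protein that binds BMP ligands and keeps them from their receptors.

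All 3 genes had their highest level in HS3 and were below Control in HS1, HS7 and HS14, but the lowest point differed between them. *Bmp2* was lowest in HS7, *Acvrl1* in HS1 and *Grem1* in HS14. *Grem1* had the widest range, with group means from 13.8 to 349 CPM, against 4.76 to 62.9 CPM for *Acvrl1* and 5.24 to 27.9 CPM for *Bmp2*. In bulk RNA, fewer cells that express a gene and less RNA per cell cannot be told apart.

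**Figure D1:**
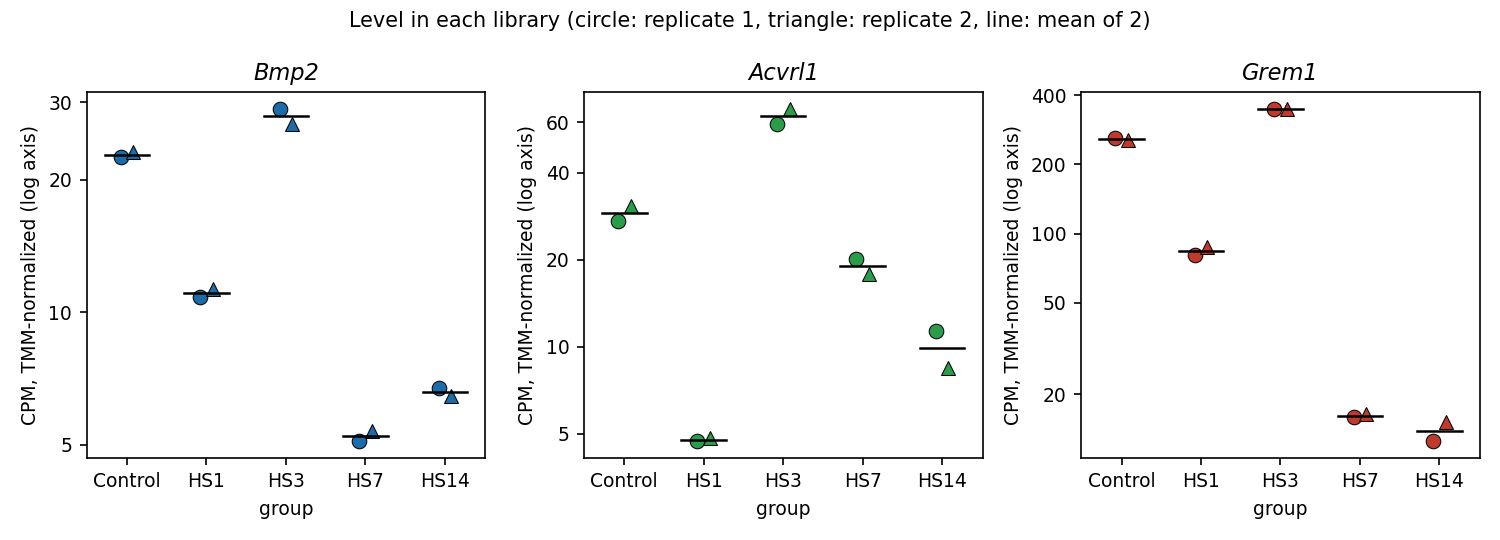
CPM of *Bmp2*, *Acvrl1* and *Grem1* on log axes in each of the 10 libraries, with circles for replicate 1, triangles for replicate 2 and a line at the mean of the 2. Each gene is highest in HS3, and the lowest group is HS7 for *Bmp2* (5.24 CPM), HS1 for *Acvrl1* (4.76 CPM) and HS14 for *Grem1* (13.8 CPM).

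The ligand gene *Bmp2* was measured at 22.5 and 23.1 CPM in the control libraries. It stood at 10.9 and 11.3 CPM in HS1, and at 29.0 and 26.8 CPM in HS3. The HS7 libraries had 5.10 and 5.38 CPM and the HS14 libraries 6.74 and 6.45 CPM. The libraries of no group overlapped with those of another, and the order of the group means ran from HS3 through Control, HS1 and HS14 to HS7. Groups that do not overlap were common with 2 libraries each, since against Control they were found for 61.5% of all genes tested at HS1, 60.4% at HS3, 73.6% at HS7 and 71.0% at HS14. Between suspension groups the share was 70.0% for HS3 with HS1, 68.4% for HS7 with HS3, 67.8% for HS14 with HS7, 75.1% for HS7 with HS1, 68.4% for HS14 with HS1 and 71.7% for HS14 with HS3.

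Relative to Control, *Bmp2* had a log2 fold change of -1.04 at HS1 and 0.29 at HS3, each with a standard error of 0.11, then of -2.12 at HS7 and -1.79 at HS14, each with a standard error of 0.13. Those 4 comparisons share the control libraries. Between successive times, *Bmp2* rose from HS1 to HS3 by 1.34 on the log2 scale (standard error 0.13, edgeR quasi-likelihood, Benjamini-Hochberg adjusted p = 1.06e-09), a step that 17.2% of all genes tested took upwards at an adjusted p under 0.01. Neither HS1 nor HS3 had put *Bmp2* on the study's list. The log2 fold change from HS3 to HS7 was -2.43 (standard error 0.15). From HS7 to HS14 it was 0.34 (standard error 0.20), which did not pass although the libraries did not overlap. Low levels in HS7 and HS14 had put *Bmp2* on the list, so these later differences only describe it.

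The receptor gene *Acvrl1* stood at 27.3 and 30.8 CPM in the control libraries. In HS1 it was at 4.71 and 4.82 CPM, which was 16.4% of the control mean. The HS3 libraries reached 59.0 and 66.8 CPM, or 217% of the control mean. The values were 20.2 and 17.9 CPM in HS7, and 11.3 and 8.47 CPM in HS14. Here too no group overlapped with another. The order of the means ran from HS3 through Control, HS7 and HS14 to HS1, so that the first day of suspension, and not the later times, held the lowest level of this gene.

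Against Control, *Acvrl1* differed on the log2 scale by -2.61 at HS1 (standard error 0.13) and by 1.11 at HS3 (standard error 0.10). The later differences were -0.61 at HS7 (standard error 0.11) and -1.55 at HS14 (standard error 0.12). From HS1 to HS3 the log2 fold change was 3.73 (standard error 0.14), a 13.3-fold difference, which describes a gene that low levels in HS1 had put on the list. *Acvrl1* fell by 1.74 from HS3 to HS7 (standard error 0.11, edgeR adjusted p = 5.23e-08), as did 12.9% of all genes tested, and neither of these groups had put it on the list. From HS7 to HS14 the log2 fold change was -0.93 (standard error 0.15). Between HS7 and HS1 the sign for *Acvrl1* was opposite to that for the other 2 genes, with log2 fold changes of 1.98 for *Acvrl1* (standard error 0.15), -1.10 for *Bmp2* (standard error 0.17) and -2.40 for *Grem1* (standard error 0.09). Of all genes tested, 17.5% were higher and 16.7% lower in that comparison. HS14 compared with HS1 gave the same signs, 1.04 for *Acvrl1*, -0.77 for *Bmp2* and -2.64 for *Grem1*, where 12.0% of all genes tested were higher and 12.8% lower. HS14 was below HS3 for all 3 genes, by -2.10 for *Bmp2*, -2.68 for *Acvrl1* and -4.69 for *Grem1* on the log2 scale, where 13.8% of all genes tested were higher and 18.1% lower.

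The antagonist gene *Grem1* was measured at 261.6 and 255.9 CPM in the control libraries and at 80.5 and 87.6 CPM in HS1. It reached 350.0 and 348 CPM in HS3. It then stood at 15.9 and 16.4 CPM in HS7 and at 12.5 and 15.1 CPM in HS14, or 6.23% and 5.33% of the control mean. No 2 groups overlapped, but the gap between HS7 and HS14 was narrow, from 15.1 to 15.9 CPM. The late groups were thus set well apart from all earlier ones, with the lowest earlier library, in HS1, at 80.5 CPM.

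Compared with Control, *Grem1* had a log2 fold change of -1.62 at HS1 and 0.43 at HS3, each with a standard error of 0.06. At HS7 and HS14 it was -4.00 and -4.24, each with a standard error of 0.07. From HS1 to HS3 the log2 fold change was 2.06 (standard error 0.09), and from HS3 to HS7 it was -4.46 (standard error 0.09), a 21.9-fold difference. HS14 against HS7 did not pass, with -0.22 on the log2 scale (standard error 0.13). Each pair of suspension groups included a group whose difference from Control had put *Grem1* on the study's list, so all of these values are a description.

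The start of *Grem1* and that of *Eng*, the endoglin gene that is described with *Acvrl1* below, are printed because *Grem1* is the one of the 3 genes with an entry in the RefSeq promoter table and *Eng* encodes the partner of the receptor. The table holds 9 of the 13 genes of the BMP pathway lists with an identifier. The windows reach from 250 bases before to 50 bases after the annotated start, in the build GRCr8, which is a later build than the one the counts were made on. Capitals mark matches to GGCGCC, letters found in BMP response elements, and to CANNTG, the E-box bound by myogenic regulatory factors.
*Grem1*, chr3:120978270-120978569, minus strand: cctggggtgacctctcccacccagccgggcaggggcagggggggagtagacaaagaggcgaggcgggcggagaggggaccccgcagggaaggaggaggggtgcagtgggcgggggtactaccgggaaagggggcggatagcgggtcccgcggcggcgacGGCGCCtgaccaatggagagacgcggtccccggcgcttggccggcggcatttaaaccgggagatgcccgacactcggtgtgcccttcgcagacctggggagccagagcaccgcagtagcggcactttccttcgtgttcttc
*Eng*, chr3:36332029-36332328, plus strand: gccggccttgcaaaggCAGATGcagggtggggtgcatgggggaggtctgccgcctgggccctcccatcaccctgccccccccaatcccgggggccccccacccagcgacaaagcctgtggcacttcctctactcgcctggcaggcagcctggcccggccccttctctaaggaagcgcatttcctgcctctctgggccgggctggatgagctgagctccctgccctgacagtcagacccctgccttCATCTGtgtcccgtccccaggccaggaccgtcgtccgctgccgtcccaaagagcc
The *Grem1* window held GGCGCC once, at bases 160 to 165, and no CANNTG. The *Eng* window held CANNTG at bases 17 to 22 and 246 to 251, and no GGCGCC, both motifs reading the same on either strand. The letters GTCT, the core of Smad binding elements, were searched on both strands too and are not in capitals. They occurred 3 times in the *Grem1* window and 2 times in the *Eng* window, with no overlap with the other motifs. Of all 33469 promoter windows of the same length, 11% held GGCGCC, 72.1% CANNTG and 88.8% GTCT. Both windows were rich in G and C, with 70.0% in *Grem1* and 68.7% in *Eng* against a median of 51.7% over all windows. A match describes the letters and shows no binding.

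Because *Bmp2* and *Grem1* encode a ligand and its antagonist, their balance was followed as the ratio of their counts within each library, which does not depend on library size. The counts are not corrected for transcript length, so the ratio can be compared between groups but does not give the relative abundance of the 2 transcripts. Control libraries had 11.6 and 11.1 *Grem1* counts for each *Bmp2* count. The ratio was 7.42 and 7.74 in HS1, and 12.1 and 13.0 in HS3. It was 3.11 and 3.04 in HS7, and it reached 1.86 and 2.34 in HS14. The ratio thus shifted towards *Bmp2* in HS1 and more so in HS7 and HS14, while both transcripts were below Control in these groups. In HS3, where both were at their highest, the ratio lay slightly on the *Grem1* side of Control.

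As log2 of *Bmp2* over *Grem1*, the balance was -3.50 ± 0.05 for Control, -2.92 ± 0.04 for HS1, -3.65 ± 0.08 for HS3, -1.62 ± 0.02 for HS7 and -1.06 ± 0.24 for HS14 (SD, n = 2 in each group). It thus differed from Control by 0.58 at HS1, -0.14 at HS3, 1.88 at HS7 and 2.44 at HS14. The libraries of no group overlapped with those of another. For the levels of single genes, such groups were found for 60.4% to 75.1% of all genes tested. An exact permutation test of 2 against 2 libraries cannot give a two-sided p below 0.333, so no test was made. Differences from Control had also put *Grem1* on the study's list for HS1, HS7 and HS14, and *Bmp2* for HS7 and HS14. The balance in these groups is thus a description. HS14 stood above HS7 in both libraries, but its own libraries differed by more than those of any other group.

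**Figure D2:**
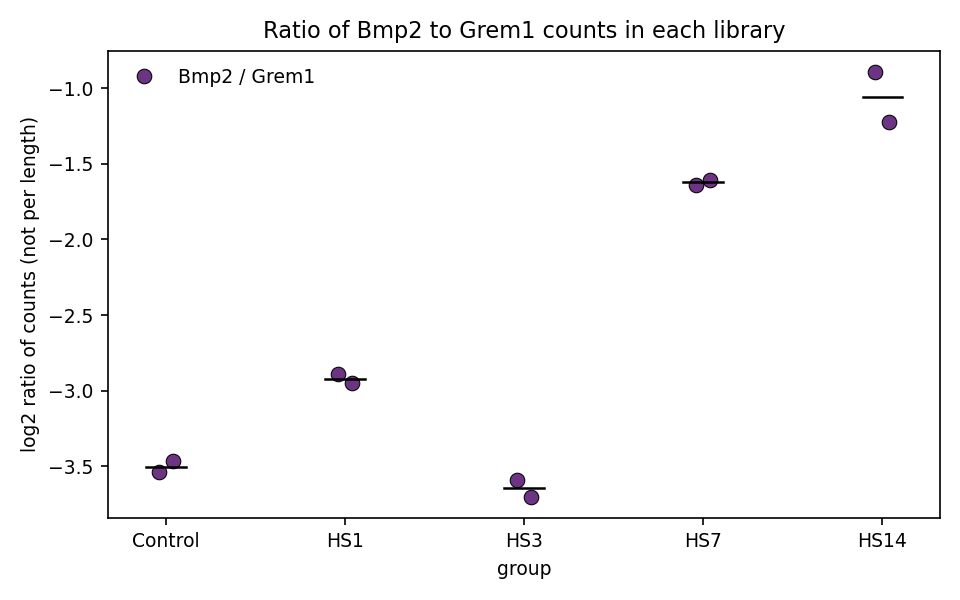
Log2 ratio of *Bmp2* counts to *Grem1* counts in each library (points), with a line at the mean of the 2 libraries of a group. The ratio is highest in HS14 and HS7, differs from Control by 0.58 at HS1, and is lowest in HS3.

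The other genes of the pathway were taken from 5 lists of BMP ligands, receptors and co-receptors, antagonists, Smads with their regulators, and target genes. Of their 68 genes, 13 had an identifier, the 3 genes above included. These 13 are genes that the study called against Control at some time, so counts against Control only describe them. In HS1, 10 of the 13 were lower and 1 was higher at an adjusted p under 0.01 in edgeR, where 10.5% of all genes tested were lower and 6.38% higher. In HS3, 9 were higher and 1 was lower (7.00% and 4.51% of all genes tested). In HS7, 9 were lower and 1 was higher (16.2% and 16.6%), and in HS14, 11 were lower and 1 was higher (17.0% and 15.8%). The counts of higher genes were not stable. With any 1 library left out and the rest fitted together, 4 to 5 genes were higher in HS3, 0 to 1 in HS1, 2 in HS7 and 0 in HS14. The counts of 2 in HS7 and 0 in HS14 were the same with all libraries in 1 fit and none left out. The median log2 fold change of the 13 genes was -1.55 at HS1, 0.88 at HS3, -0.92 at HS7 and -1.55 at HS14.

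The counts between successive suspension times are not free of the choice either. Of the 13 genes, 8 were on the study's list for HS1, 7 for HS7 and 7 for HS14. From HS1 to HS3, 11 of the 13 genes rose and 2 fell, against 17.2% and 13.3% of all genes tested, with a median log2 fold change of 2.56. From HS3 to HS7, 10 fell and 2 rose, against 12.9% and 10.1% of all genes tested, with a median of -1.81. The genes on the study's list as a whole leaned the same way, and whether the BMP genes differ from the rest of the list was not tested. Of those with a symbol, 482 rose and 93 fell among 742 tested from HS1 to HS3 (median 1.74), and 334 fell and 173 rose among 752 tested from HS3 to HS7 (median -0.70). In both steps the genes that moved against the others were *Bmp6* and *Fstl3*. Among the 3 genes that neither HS1 nor HS3 had put on the list, *Bmp2* and *Gata6* rose and *Fstl3* fell between these times. Among the 5 genes that neither HS3 nor HS7 had put there, *Acvrl1*, *Eng*, *Smad6*, *Msx1* and *Gata6*, all 5 fell. From HS7 to HS14, 11 of the 13 genes passed the filter on low counts. Of these 11, *Acvrl1*, *Hjv*, *Fstl3* and *Smad6* fell, against 12.0% of all genes tested, and 0 rose in edgeR, with 0 at an unadjusted p under 0.05 and 0 in DESeq2, against 11.5% of all genes tested. The median of the 11 was -0.67. Among the 4 genes that neither HS7 nor HS14 had put on the list, *Smad6* fell, and *Bmp6*, *Eng* and *Msx1* did not pass.

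Among ligands, *Bmp6* moved opposite to *Bmp2* from HS1 to HS3 and from HS3 to HS7. Against Control, the difference of *Bmp6* passed only in HS3. Its level was 2.93 and 3.57 CPM in Control. HS1 had 5.49 and 3.82 CPM, HS3 had 1.01 and 1.03 CPM, HS7 had 5.18 and 4.94 CPM and HS14 had 4.05 and 4.26 CPM. Of the 3 ligand genes with an identifier it was the one lowest in HS3. Its log2 fold change was -2.17 from HS1 to HS3 (standard error 0.33) and 2.28 from HS3 to HS7 (standard error 0.30), and its low level in HS3 had put it on the list. *Gdf10*, a ligand-like gene also named BMP3b, had 28 and 16 counts in Control and 70 and 66 counts in HS3, and either 0 or 2 counts in every other library, which is below the floor of 3 counts per library.

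Among receptors, endoglin, the co-receptor of ALK1, followed the same order as *Acvrl1* over Control, HS1 and HS3 on a smaller scale. *Eng* stood at 92.3 and 99.4 CPM in Control. HS1 had 33.7 and 32.9 CPM and HS3 had 133 and 151 CPM, followed by 56.4 and 44.4 CPM at HS7 and 48.4 and 47.5 CPM at HS14. It differed by 2.09 from HS1 to HS3 (standard error 0.10) and fell by 1.51 from HS3 to HS7 (standard error 0.11, edgeR adjusted p = 5.12e-07). The log2 ratio of *Acvrl1* to *Eng* counts differed from Control by -1.08 at HS1, 0.55 at HS3, 0.33 at HS7 and -0.57 at HS14, so the receptor moved further than its co-receptor in HS1, HS3 and HS14. *Hjv* encodes hemojuvelin, a BMP co-receptor known from iron regulation and expressed in skeletal muscle. Its highest level was in HS7, at 36.6 and 20.5 CPM, compared with 6.69 and 8.31 CPM in Control. The log2 fold change of *Hjv* from HS1 to HS3 was 2.66 (standard error 0.20). From HS3 to HS7 it was 0.81 (standard error 0.28). Levels in HS1 and HS7 had put *Hjv* on the list, so both differences only describe it. The second did not pass in the edgeR fit of the 4 libraries and passed in some of the alternatives, which is no test either. This second difference was 0.35 without HS7 replicate 1 and 1.19 without HS7 replicate 2.

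Among antagonists, *Fstl3* encodes a follistatin-like protein that binds activins and some BMPs. It stood at 20.7 and 17.4 CPM in Control, 17.4 and 18.1 CPM in HS3, and 68.7 and 61.1 CPM in HS7, where *Grem1* was far below Control. *Fstl3* fell by 0.71 from HS1 to HS3 (edgeR adjusted p = 5.40e-05). Its log2 fold change was 1.85 from HS3 to HS7 (standard error 0.11) and -1.41 from HS7 to HS14 (standard error 0.09), where its level in HS7 had put it on the list. It was the gene counted as higher in HS1, HS7 and HS14 above.

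The inhibitory Smad gene *Smad6*, a negative feedback regulator of the pathway, had the same order of group means as *Acvrl1*. It was at 21.6 and 26.1 CPM in Control. HS1 had 7.33 and 7.85 CPM, HS3 had 42.5 and 45.4 CPM, HS7 had 14.7 and 12.3 CPM and HS14 had 8.26 and 8.68 CPM. *Smad6* differed by 2.54 from HS1 to HS3 (standard error 0.13) and fell by 1.72 from HS3 to HS7 (standard error 0.12, edgeR adjusted p = 1.47e-07). The 4 target genes with an identifier also stood higher in HS3 than in HS1 and HS7. *Gata6*, which encodes a zinc finger transcription factor, rose by 2.56 from HS1 to HS3 (edgeR adjusted p = 6.04e-07) and fell by 1.81 from HS3 to HS7 (edgeR adjusted p = 0.000408). *Msx1*, a homeobox gene, differed by 2.63 from HS1 to HS3 and fell by 2.04 from HS3 to HS7 (edgeR adjusted p = 3.59e-05). For *Tmem100*, described as a target of ALK1 signaling in endothelium, the log2 fold changes in these steps were 3.35 and -2.30. Those of *Msx2*, another homeobox gene, were 2.99 and -4.57, and it had 180 and 225 counts in HS3 but 4 and 15 counts in HS7. The 2 libraries of *Msx1* were apart in HS7, at 4.53 and 2.37 CPM, and in HS14, at 4.08 and 1.77 CPM.

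**Figure D3:**
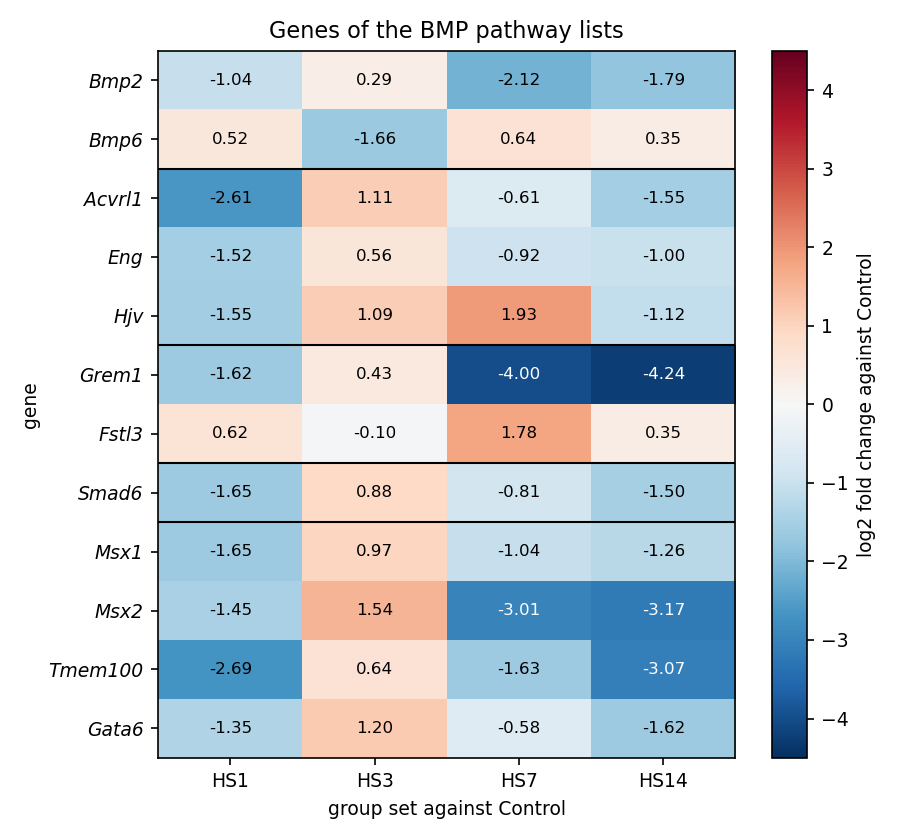
Log2 fold change against Control (colour and printed value) of 12 genes of the BMP pathway lists in HS1, HS3, HS7 and HS14, with lines between ligands, receptors, antagonists, *Smad6* and target genes. *Gdf10* is left out for its low counts. Most genes are below Control in HS1, HS7 and HS14 and above it in HS3, while *Bmp6*, *Fstl3* and, in HS7, *Hjv* do not follow this course.

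Over the 10 libraries, which form 5 pairs of replicates and so are not independent points, log2 CPM of *Bmp2* and *Grem1* had a Pearson correlation of 0.98 and a Spearman correlation of 0.88. *Acvrl1* correlated less with both, with Pearson correlations of 0.61 with *Bmp2* and 0.55 with *Grem1*. *Smad6* (0.96) and *Eng* (0.95) were closer to *Acvrl1*. All of these genes were on the study's list for differences from Control in the same libraries. The correlations are thus not free of the choice and only describe the genes. Among the 260 other genes with a symbol and a mean log2 CPM of at least 3, those most like *Bmp2* were the water channel gene *Aqp1* (Pearson correlation 0.995), *Nrn1*, which encodes neuritin (0.993), and *Nptx1*, which encodes a neuronal pentraxin (0.987). *Grem1* ranked as number 6 for *Bmp2*, and *Bmp2* as number 4 for *Grem1*. Most like *Acvrl1* were the fibrillin gene *Fbn1* (0.995), the collagen gene *Col16a1* (0.994) and *C1qtnf6* (0.992). *Smad6* ranked only as number 41 for *Acvrl1*, and *Eng* as number 51. Most like *Grem1* were *Esm1*, which encodes endocan (0.996), *Sulf2*, which encodes an extracellular sulfatase (0.993), and *Ltbp2*, which encodes a latent TGF-β binding protein (0.986). Among all 13683 other genes kept, with or without a symbol, *Aqp1*, *Fbn1* and *Esm1* each still ranked as number 1. There *Grem1* ranked as number 14 for *Bmp2*, and *Bmp2* as number 12 for *Grem1*.

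Markers of other cell types had an identifier only if the study had called them against Control at some time. Their differences between the groups thus follow from the choice, and markers that it had not called are missing here. For fibroblasts and fibro-adipogenic progenitors, cells in which *Grem1* is often found, 7 of 11 markers had an identifier, and none was at 0 in any group. Their summed level was 7400 to 7877 CPM in Control. It was 2402 to 2415 CPM at HS1, 15570 to 19670 CPM at HS3, 8297 to 8342 CPM at HS7 and 2812 to 2999 CPM at HS14, most of it *Col1a1*. The progenitor marker *Pdgfra* stood at 20.9% of Control at HS1, 203% at HS3, 42.3% at HS7 and 39.4% at HS14. From HS1 to HS3 all 7 markers rose, and from HS3 to HS7, 5 fell and 1 rose. At HS7, where all 3 genes were below Control, 4 of the 7 markers were above it, *Lum* at 187%, *Dcn* at 166%, *Dpt* at 144% and *Col1a1* at 115% of Control. *Pdgfra*, *Thy1* (33.4%) and *Mfap5* (38.4%) were below Control there, as the 3 genes were. At HS3, *Thy1* stood at 198% and *Mfap5* at 263% of Control. At HS14, *Dcn* (275%) and *Lum* (137%) were above Control and the other 5 below it. The part of these cells in the levels of *Bmp2*, *Acvrl1* and *Grem1* was not tested.

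For endothelial cells, in which *Acvrl1* and *Eng* are usually found, 6 of 11 markers had an identifier. They summed to 2.38 to 4.86 CPM in Control. The sum was 1.39 to 1.48 CPM at HS1, 8.40 to 9.32 CPM at HS3, 9.01 to 11.7 CPM at HS7 and 15.3 to 16.8 CPM at HS14. *Emcn*, a defining marker, was at 0 in both HS1 libraries and below 3 counts in Control and HS3, and *Cdh5*, which encodes VE-cadherin, was at 0.61 and 0.64 CPM in HS3 and 5.15 and 4.42 CPM in HS14. The markers did not share one course. *Cdh5*, *Tie1*, *Vwf*, *Emcn* and *Esam*, 5 of the 6, were highest in HS14, where *Acvrl1* was low. *Kdr*, which encodes a VEGF receptor, made up most of the sum at HS3 and was highest there, as *Acvrl1* was, with 8.0 and 6.8 CPM. It stood at 1.74 and 3.42 CPM in Control and was lowest in HS1, with 0.573 and 0.781 CPM. The HS7 libraries had 3.32 and 2.93 CPM and the HS14 libraries 3.18 and 3.20 CPM. The part of endothelial cells in the level of *Acvrl1* was not tested. For pericytes and smooth muscle, 3 of 10 markers had an identifier. Their summed level was 198 to 200.3 CPM for Control and 72.8 to 73.2 CPM for HS1. It was 376 to 410.0 CPM for HS3, 218 to 261 CPM for HS7 and 154 to 182 CPM for HS14. *Pdgfrb* was highest in HS3 (217% of Control) and *Notch3* in HS7 (431%). *Rgs5*, at 0 in Control, was highest in HS14 (1.28 and 1.14 CPM). The 1 leukocyte marker of 10, *Lyz2*, was highest in HS3, at 4.46 and 7.32 CPM, and reached at most 2.21 CPM in the other groups. The 2 Schwann cell markers of 6 summed to 14.0 to 15.9 CPM in Control and 2.52 to 3.32 CPM in HS1. Their sum was 33.7 to 35.4 CPM in HS3 and between 7.31 and 8.82 CPM in HS7 and HS14. These 2 markers did not share one course. *S100b* stood at 238% of Control in HS3 and 31.9% in HS14, and *Ngfr* at 89.0% and 553%.

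**Figure D4:**
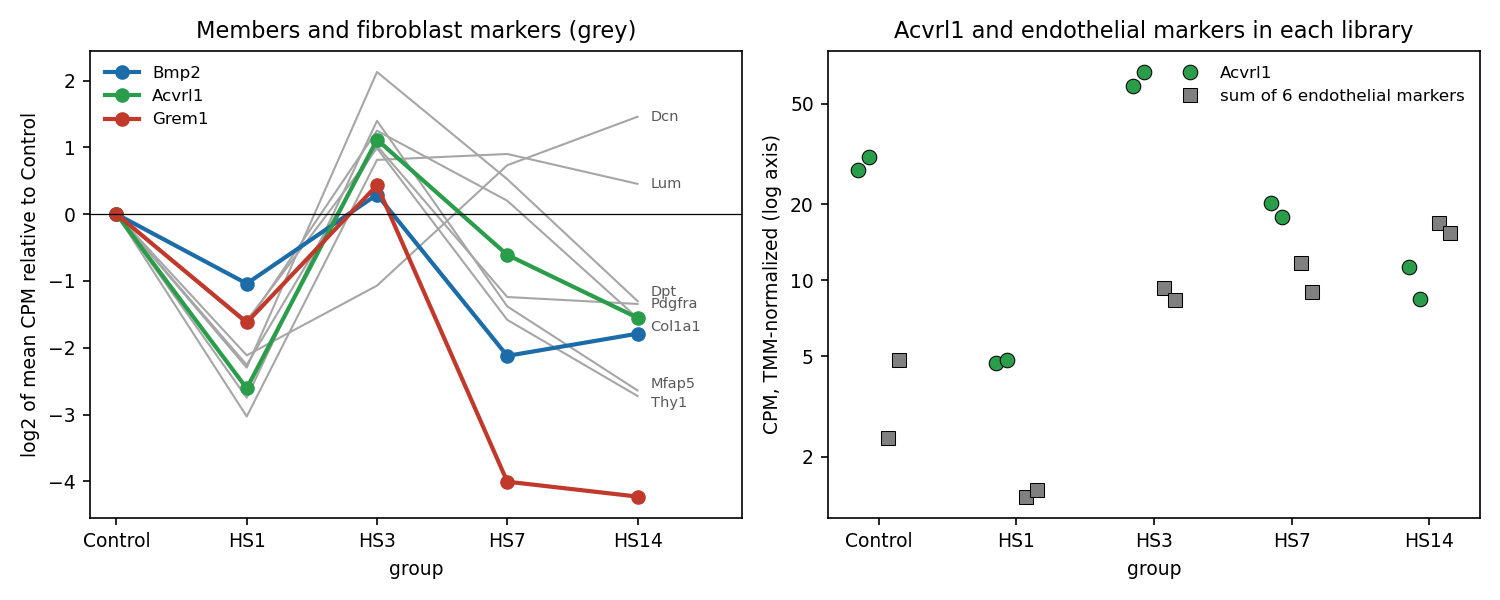
Left, log2 of the mean CPM relative to Control for *Bmp2*, *Acvrl1* and *Grem1* (colours) and 7 markers of fibroblasts and fibro-adipogenic progenitors (grey) in the 5 groups. Right, CPM on a log axis of *Acvrl1* (circles) and of 6 summed endothelial markers (squares) in each library, where *Acvrl1* is highest in HS3 and the sum of the endothelial markers in HS14.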

How the data were processed

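RNA of cultured soleus progenitor cells was sequenced in 10 libraries of 5 groups. The study's methods name a stranded mRNA kit, STAR and featureCounts 1.6.4, with the genome mRatBN7.2, whereas the submitters' processing notes name Rnor_6.0. The authors deposited raw counts per Ensembl gene. The handling of mates, strand and reads with several hits is not given in the sources used here. In each library, even numbers made up 69.4% or more of the counts between 1 and 20, so a count may not be 1 independent fragment.

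The genes described and the gene lists were chosen with earlier results of these data known. Symbols came from the study's list of 817 called genes, 770 of them with a symbol. For each comparison its 4 libraries were fitted in edgeR 4.0.16 (R 4.3.3, limma 3.58.1) with filterByExpr, TMM, the robust quasi-likelihood test and Benjamini-Hochberg adjustment over all genes tested. A gene passed at an adjusted p under 0.01, the study's threshold. The standard error is the log2 fold change divided by the root of the F statistic. CPM values used TMM factors over all 10 libraries, and log2 CPM a prior count of 2. The fit was tested on simulated data.

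Named genes are the 3 genes described, list genes that passed with a log2 fold change beyond 1.5 in 1 or more of the 7 comparisons, markers, and the 3 genes most correlated with each of the 3. Alternatives were DESeq2 1.42.0, RLE factors, no filter, 1 fit of all libraries, the replicate number as a block, other thresholds, and each library left out in turn. Replicate numbers come from the sample names, and the check of pairing (correlation of residuals between libraries with the same number) gave -0.02 to 0.04, so the numbers were not taken as pairs. Gene identifiers of most pathway genes were not at hand, so those genes were not analysed here. One result on a further gene of the lists is not reported here.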

Additional observations from a re-analysis of the deposited data

Results flagged for a closer look

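For each of the 3 genes, edgeR comparisons of suspension groups with an adjusted p under 0.01 were flagged. Only *Bmp2* in HS3 against HS1 and *Acvrl1* in HS7 against HS3 were between groups that had not put the gene on the study's list. Each other comparison, and so each one of *Grem1*, includes a group that had put the gene there. It is not independent of the choice and only describes the gene. For *Bmp2* the log2 fold changes were 1.34 in HS3 against HS1, -2.43 in HS7 against HS3, -1.10 in HS7 against HS1, -0.77 in HS14 against HS1 and -2.10 in HS14 against HS3. For *Acvrl1* they were 3.73 in HS3 against HS1, -1.74 in HS7 against HS3, -0.93 in HS14 against HS7, 1.98 in HS7 against HS1, 1.04 in HS14 against HS1 and -2.68 in HS14 against HS3. For *Grem1* they were 2.06 in HS3 against HS1, -4.46 in HS7 against HS3, -2.40 in HS7 against HS1, -2.64 in HS14 against HS1 and -4.69 in HS14 against HS3. Each direction was shared by all 4 pairings of a library of one group with a library of the other. This is the same as groups that do not overlap. Between suspension groups, 67.8% to 75.1% of all genes tested had such groups.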

How the results depend on the processing

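For *Bmp2*, *Acvrl1* and *Grem1*, all 108 values against Control kept their direction, and all 162 values between suspension groups kept their direction and their side of the threshold, over all alternatives including each library left out in turn.

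The counts of BMP pathway genes moved more, and the cause was not tested. Requiring also a log2 fold change beyond 1.5 left 0 genes higher in HS1, 2 higher in HS3, 5 lower in HS7, and 0 higher and 7 lower in HS14 against Control, 1 lower in HS3 against HS1 and 1 lower in HS14 against HS7. In HS7, 2 genes were higher than Control with DESeq2, with no filter and with all libraries in 1 fit, and 3 at an adjusted p under 0.05. In HS14, 0 were higher with DESeq2, with all libraries in 1 fit and with the replicate block, where the gene that no longer passed was *Fstl3*. The replicate block moved no other of these counts by over 1.5 times, and the numbers share no stated origin. With a library left out, the others being fitted together, the genes higher than Control were 0 to 1 in HS1, 4 to 5 in HS3, 2 in HS7 and 0 in HS14. For HS1 the count was 0 without Control replicate 2 or HS1 replicate 2. For HS3 it was 4 without Control replicate 1 and 5 without Control replicate 2 or either HS3 library.

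Without Control replicate 1, *Fstl3* in HS3 against Control was 0.0345, the other sign, within -0.21 to 0.0345 over the libraries left out. In HS14 against HS7, *Eng* reversed to 0.10 without HS7 replicate 1 and *Msx1* to 0.32 without it and to 0.24 without HS14 replicate 2, none of which passed (ranges over the libraries left out -0.24 to 0.10 and -0.96 to 0.32), and *Smad6* no longer passed without HS7 replicate 1 (adjusted p = 0.0116 in edgeR). With Spearman correlation, 1 of the 3 genes most like *Acvrl1* stayed among the first 3. The balance per transcript length was not run, since transcript lengths were not used here.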
